A study of Mus musculus with 25 samples.

Results

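The comparison set 9 mouse embryonic stem (ES) cell clones with strong β-catenin mutations against 3 clones with weak ones, 12 of the 25 libraries sequenced. All clones were E14 cells, a feeder-free male mouse ES cell line kept in serum with leukemia inhibitory factor (LIF), and each carried a missense mutation on 1 of its *Ctnnb1* alleles, was grown without inhibitor and gave 1 library. Among the strong clones, 4 were mutated at codon 41 (B9 and A6 with T41I, C1 and E6 with T41A) and 5 at codon 37 (A5 with S37Y, H2 and G1 with S37F, A10 with S37A, G12 with S37C), so 6 mutations were represented and 3 of them by 2 clones. The weak clones were S45C clone D3, T41N clone D3 and T41S clone H8. The other libraries came from 3 medium clones (G5 with S45P, C1 and D9 with S45F) and from 10 cultures of unedited E14 cells, 2 at each of 5 doses (0, 2.5, 5, 7.5 and 10 µM, 48 h) of CHIR99021, an inhibitor of the kinase GSK3. Strong, medium and weak follow the order of a reporter score measured in other ES cells, but the study formed the categories by clustering these same transcriptomes, so a test between them is not independent of how they were made. Each clone arose from a single edited cell, the unedited cultures went through neither editing nor cloning, and the labels give no date or batch.

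β-catenin is the effector of canonical Wnt signaling. A destruction complex built on APC and AXIN lets the kinases CK1 and GSK3 phosphorylate serine and threonine residues near its amino terminus, after which the ubiquitin ligase β-TRCP docks and the protein is degraded. Substitution of a phosphorylated residue can spare the protein, which then enters the nucleus and acts with TCF/LEF factors. How far it does so depends on the substitution, and the paper found some, T41S among them, well tolerated. In mouse ES cells this arm relieves repression by TCF7L1 of naive pluripotency genes, and β-catenin is also a structural part of cadherin junctions. The mutated residues lie in exon 3. The stretch below is the GENCODE M21 coding sequence of codons 31 to 48, on the plus strand at chr9:120950599-120950652 (GRCm38), with codons 37, 41 and 45, which encode serine, threonine and serine, in capitals; it is shown because the labels place the mutations of all 12 clones within these capitals.
Ctnnb1 codons 31 to 48: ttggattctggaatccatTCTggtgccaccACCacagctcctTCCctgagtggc

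The strong and weak libraries were not equal in every technical respect. Total counts ran from 977644 to 2025273 (median 1345179) in the strong clones and from 495616 to 1770304 (median 662881) in the weak ones, of which T41S was the deepest (exact permutation test over 220 splits, two-sided, p = 0.109, adjusted over 5 library properties 0.136). The share of counts from 80 ribosomal protein genes was 8.35 to 10.3% in the strong and 6.56 to 7.27% in the weak clones (exact permutation p = 0.00455, the smallest that these splits allow, adjusted p = 0.0227), and 10.8 and 12.01% in untreated unedited cells. On chromosome 16 the S45C clone lay 0.37 above the median clone (median log2 ratio over 227 genes), the only shift of at least 0.3 among the 12 clones over chromosomes with 20 or more such genes. The part of these differences in the gene results was not tested. The ES cell label was borne out by *Sox2* (586 ± 82.2 CPM, counts scaled to a common library total, SD, n = 9 strong clones), *Nanog* (454 ± 112) and *Sall4* (406 ± 33.2), and *Sox2* was measured at 618, 516 and 310 CPM in S45C, T41N and T41S. *Pou5f1* was counted at only 22.2 ± 5.16 CPM in the strong clones; like *Gapdh* (44.9 ± 7.44 CPM), it has near-identical copies in the genome that can take or void its reads, and its level is uncertain.

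The targeted gene itself did not differ in RNA. *Ctnnb1*, at chr9:120929216-120960507 (GRCm38, plus strand), was measured at 482 ± 30.7 CPM (SD, n = 9) in strong and 490 ± 49.1 CPM (n = 3) in weak clones, with 484 ± 39.9 in the medium clones and 440 and 446 CPM in untreated cells. The log2 fold change of strong over weak was −0.01 (SE 0.10; edgeR quasi-likelihood test, adjusted p = 0.965). The counts do not separate the mutant from the wild-type allele.

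Across the transcriptome, 2983 of 10285 genes tested differed at an adjusted p under 0.05 (29%), 1405 higher (13.7%) and 1578 lower (15.3%) in the strong clones. Of these, 474 were at least 2-fold higher and 803 at least 2-fold lower, and 107 and 277 at least 4-fold. For 2116 genes (20.6%) no strong clone overlapped any weak clone, 972 with the strong clones above (9.45%) and 1144 below (11.1%). The median log2 fold change was 0.77 over the genes called higher, −1.01 over those called lower and 0.03 over all genes. These counts dropped most without the T41S clone, to 1657 genes, 712 higher and 945 lower, against 2572 without T41N and 2837 without S45C. T41S was also the deepest weak library. With all 12 libraries kept but thinned to 495616 counts each, 1806 genes were called. The parts of clone and depth in the drop were not tested.

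**Figure D1:**
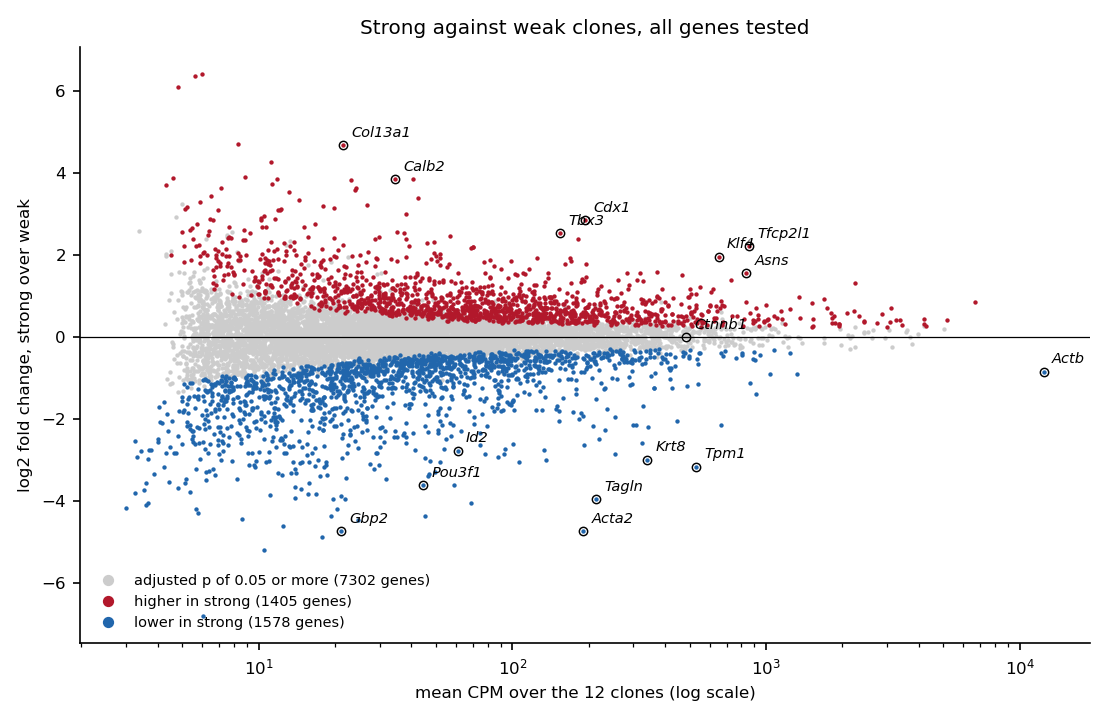
Log2 fold change of strong over weak clones against the mean CPM of the 12 clones (log scale), 1 point per gene tested, red for the 1405 genes called higher and blue for the 1578 called lower at an adjusted p under 0.05. Rings mark selected genes, among them *Col13a1* (4.67) and *Acta2* (−4.73), which head the 15 largest rises and 15 largest falls of the text. *Ctnnb1* lies at −0.01.

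*Cdx1*, a homeobox gene that Wnt signaling switches on in the caudal embryo, stood at 115, 258 and 334.5 CPM (lowest, median and highest strong clone) and at 34.7, 32.3 and 35.6 CPM in S45C, T41N and T41S, a 7.21-fold rise (adjusted p = 2.25e-07). The weak clones lay within 4 CPM of each other and hardly above the 27.7 and 28.7 CPM of untreated unedited cells, and the medium clones in between at 61.2 to 81.6 CPM. *Tbx3*, a T-box factor that supports self-renewal, reached 128 to 269 CPM in the strong clones and 28.7, 50.4 and 28.8 CPM in the weak ones (log2 fold change 2.54, SE 0.24, adjusted p = 3.02e-07). *Tet2*, an enzyme that oxidizes 5-methylcytosine, rose from 36.2 to 66.6 CPM in the weak to 145 to 314 CPM in the strong clones (2.40, adjusted p = 1.2e-06).

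Other large rises were in genes of lower level. *Col13a1*, a transmembrane collagen, was at 11.6 to 44.0 CPM in the strong clones and at 3.02, 0 and 0.565 CPM in S45C, T41N and T41S (log2 fold change 4.67, SE 0.67). *Calb2*, which encodes the calcium-binding protein calretinin, *Dmgdh*, a mitochondrial enzyme of choline breakdown, and *Trpm1*, a cation channel gene, had log2 fold changes of 3.84, 3.64 and 3.39. *Trpm1* ranged from 12.6 to 129 CPM among the strong clones. Its call was lost without T41S (adjusted p = 0.0571), with the log2 fold change hardly moved at 3.38. The call of *Bin2* was lost too (adjusted p = 0.0575), at 1.81 against 2.25. The rest of the 15 largest were *Ndufa4l2*, *Halr1*, *Aldoc*, *Mobp*, *Aqp3*, *Mcf2* and *Prelid2*, with log2 fold changes of 2.30 to 3.84. *Ndufa4l2* was at 155 CPM in untreated unedited cells, above every clone (highest 52.0 CPM), so the weak clones, at 1.51 to 4.04 CPM, were the farther from them.

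The promoters of the leading rises were read for the TCF/LEF motif, CTTTG followed by 2 letters that are each A or T, on both strands. A match was held by 14.5% of the genes called higher with a window, 13.2% of those called lower and 13.2% of all tested, so the rises as a whole were near the background. Of the 15 largest rises 9 had a window and 3 a match (*Col13a1*, *Trpm1* and *Mobp*), and of the 15 largest falls 10 had a window and 1 a match. *Mobp* held 4 matches before its start site, which overlap in the stretches around them and are not printed; those of *Col13a1* and *Trpm1* are shown with the match in capitals, since these genes had large rises; both read on the opposite strand.
Col13a1 (chr10:61979287-61979353, minus): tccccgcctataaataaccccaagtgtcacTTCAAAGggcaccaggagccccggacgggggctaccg
Trpm1 (chr7:64185360-64185426, plus): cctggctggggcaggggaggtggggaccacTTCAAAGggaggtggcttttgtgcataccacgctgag

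The naive pluripotency genes, which mark the ground state of mouse ES cells, were higher in the strong clones as a group. Of the 12 listed, 9 were called higher and 0 lower (75% against 13.7% of all genes), with a median log2 fold change of 1.26. For 8 the groups did not overlap, beside 9.45% of all genes with the strong clones above. *Tfcp2l1*, a factor downstream of LIF and Wnt, was at 807, 1090 and 1306 CPM (lowest, median, highest) in the strong and at 267, 301 and 154 CPM in S45C, T41N and T41S, a 4.63-fold difference (adjusted p = 1.01e-07). *Klf4*, a Krüppel-like factor of the same network, was at 519 to 931 against 213, 262 and 163 CPM (log2 fold change 1.96, SE 0.18, adjusted p = 1.87e-07). For both genes the lowest strong clone was far above the highest weak one.

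The orphan receptor gene *Esrrb* was at 491 to 661 CPM in the strong clones and 216, 274 and 121 CPM in the weak ones (log2 fold change 1.52). *Klf5* (1.16), *Nr0b1* (1.36), *Zfp42* (0.97), *Tcl1* (1.89) and *Klf2* (0.79) were likewise called. *Prdm14*, *Dppa3* and *Nr5a2* were not, with log2 fold changes of 1.13, −0.16 and 0.69 (adjusted p = 0.175, 0.873 and 0.0788). Summed over the list, the strong clones held 4546 to 5162 CPM, the medium clones 3517 to 4038, the weak clones 1289 to 2189 and untreated cells 2305 and 2501 CPM. By this sum every weak clone lay below, and every medium and strong clone above, the untreated cultures. The sum is weighted to the most abundant members, and single genes could depart from that order. *Zfp42*, *Nr0b1* and *Nr5a2* were higher in S45C and T41N, though not in T41S, than in both untreated cultures.

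The core pluripotency genes shared by naive and primed cells moved less. Of 10, *Nanog* (log2 fold change 0.77), *Tdgf1*, a Nodal co-receptor gene (0.79), and *Dppa5a* (1.40) were called higher and 0 lower, with a median of 0.22. The share called higher was 30%, beside 13.7% of all genes. *Sox2*, *Sall4* and *Lin28a* had values of 0.32, 0.12 and −0.22 (adjusted p = 0.149, 0.474 and 0.281). *Nanog* lost its call without T41S (0.56, adjusted p = 0.117).

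Genes of the primed state, reached after implantation, mostly lay on the other side. Of 10 listed, 7 could be fitted, 5 were called lower and 1 higher (71.4% and 14.3%, beside 15.3% and 13.7% of all genes), with a median of −1.52. *Pou3f1*, which encodes the octamer factor OCT6, was at 5.59 to 16.3 CPM in the strong clones and at 149, 101 and 181 CPM in S45C, T41N and T41S, 12.2-fold more (adjusted p = 1.33e-09). *Dnmt3b*, a de novo DNA methyltransferase, was at 98.9 to 217 against 499, 398 and 366 CPM (log2 fold change −1.52, SE 0.17). *Dnmt3a* (−0.98), *Sall2* (−3.02) and *Cdh2*, the N-cadherin gene (−2.59), were also lower. *Zic2* went the other way: it had no count in any weak clone and 6.39 ± 3.47 CPM in the strong ones, at least 6.24-fold higher against a floor of 3 counts over the weak group. *Fgf5*, *Otx2* and *Sox3* were too low to be tested.

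Within the DNA methylation machinery the family members divided. *Tet2* and the maintenance cofactor *Uhrf1* (log2 fold change 0.63) were higher, *Dnmt3a*, *Dnmt3b* and *Tet3* (−2.43) lower, and *Dnmt1* (0.29), *Dnmt3l* (−0.02) and *Tet1* (−0.23) did not pass the test. *Tet3* was low in every library, at 1.60 to 8.89 CPM in the strong and 18.2 to 22.6 CPM in the weak clones. *Uhrf1* was no longer called without T41S (adjusted p = 0.0941).

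**Figure D2:**
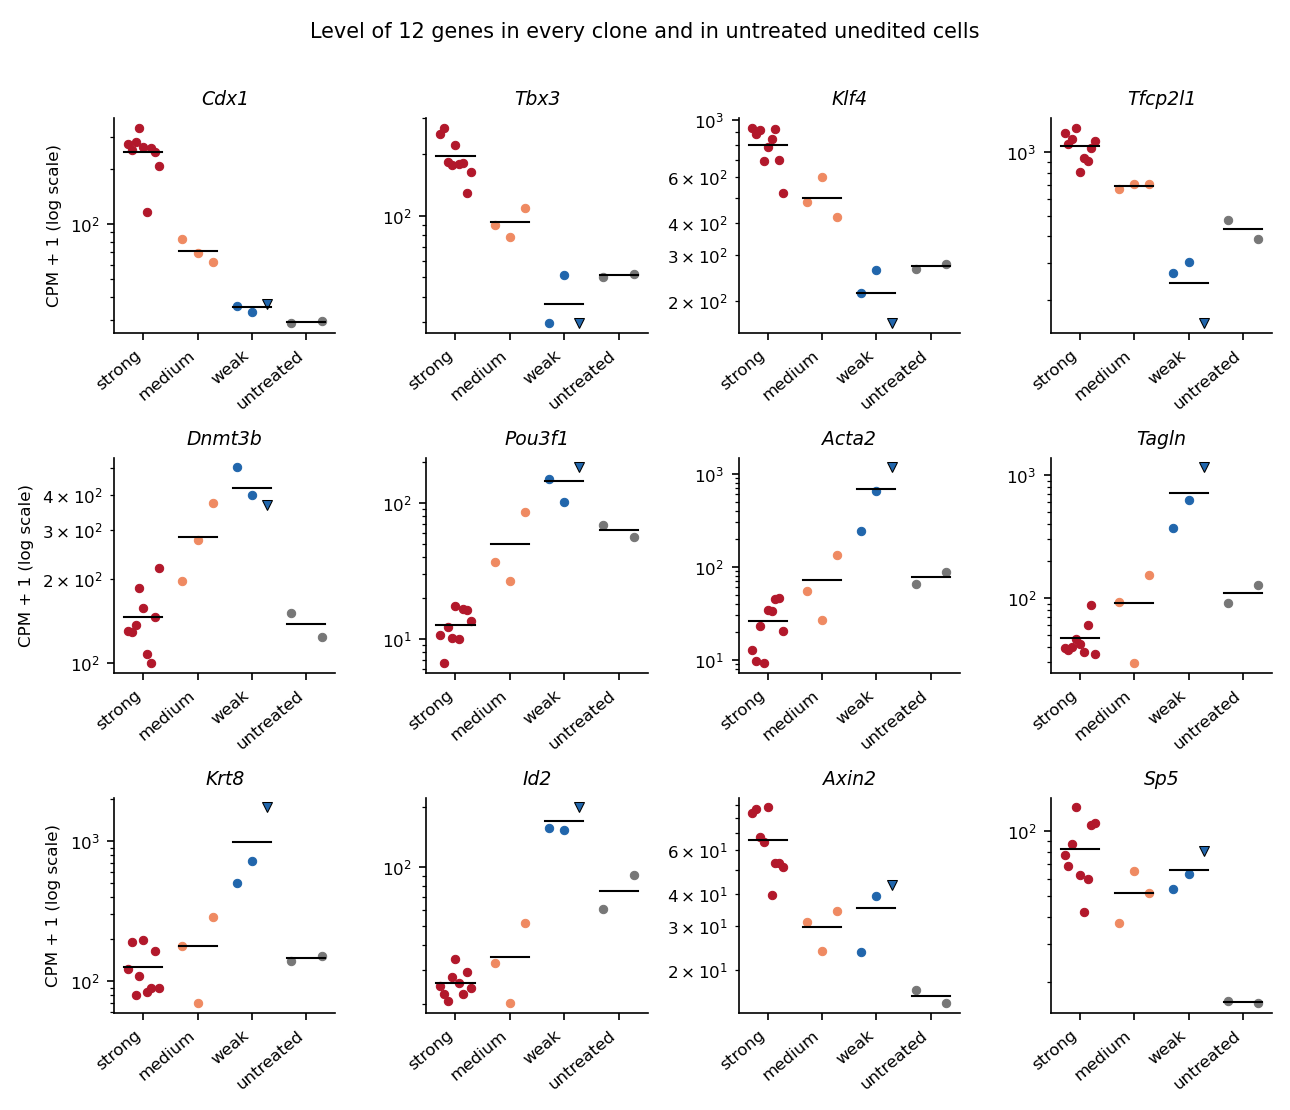
CPM + 1 (log scale) of 12 genes, 1 point per library, in strong (9), medium (3) and weak (3) clones and untreated unedited cells (2); lines are group means and the triangle is the T41S clone. *Cdx1*, *Tbx3*, *Klf4* and *Tfcp2l1* are higher and *Dnmt3b*, *Pou3f1*, *Acta2*, *Tagln*, *Krt8* and *Id2* lower in every strong than in every weak clone, while *Axin2* and *Sp5* overlap.

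The broadest fall was in genes of the actin cytoskeleton, many of them targets of the serum response factor SRF or of YAP. Of 16 listed, 14 could be fitted and 14 were called lower (15.3% of all genes were), and the median log2 fold change was −2.15. For 12 of them the groups did not overlap, beside 11.1% of all genes with the strong clones below. *Acta2*, the smooth muscle actin gene, was at 8.18, 22.4 and 44.8 CPM (lowest, median, highest) in the strong clones and at 241, 646 and 1169 CPM in S45C, T41N and T41S. The difference was 26.6-fold (log2 fold change −4.73, SE 0.35, adjusted p = 1.99e-08). Every weak clone was also above both untreated cultures (64.7 and 87.2 CPM), and every strong clone below them, as the plot of 12 genes by library shows.

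*Tagln*, which encodes the actin-binding protein transgelin, was at 34.1 to 86.1 CPM in the strong and at 373, 621 and 1147 CPM in the weak clones (15.5-fold). *Tpm1*, tropomyosin 1, was at 142 to 219 against 785, 1350 and 2628 CPM (8.90-fold). In each case T41S was the highest and S45C the lowest weak clone. *Actb*, the most abundant transcript in every clone but S37F clone H2, was at 10343 ± 1816 CPM in the strong clones and 12130, 19700 and 24510 CPM in the weak ones, where the ranges overlapped (log2 fold change −0.84, adjusted p = 0.000578). *Cnn1* (−4.37), *Myl9* (−3.69), *Tpm2* (−2.72), *Cnn2* (−2.15), *Ccn2* (−2.15), *Ccn1* (−1.87), *Flna* (−1.68), *Vcl* (−1.53), *Myh9* (−1.02) and *Actg1* (−0.61) made up the rest. Without T41S 13 of the 14 were called, with *Actg1* at an adjusted p of 0.075, and among codon 41 clones alone all 14.

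Since these genes moved together, their promoters were read for the CArG box, the SRF-binding element, on both strands of RefSeq windows (GRCm38.p6) from 250 bases before to 50 after each start site. Only the exact form was counted: CC, a run of A or T letters as long as in the boxes below, then GG. Of the 11 listed genes with a window, 4 held a match (36.4%), against 1.53% of the 7961 tested genes with one, 2.83% of those called lower and 1.33% of those called higher. The list holds many SRF targets, so a high share follows at least in part from its choice. The matches before the start site are printed on the gene's strand with the box in capitals, to show where it lies.
Cnn2 (chr10:79988514-79988583, plus): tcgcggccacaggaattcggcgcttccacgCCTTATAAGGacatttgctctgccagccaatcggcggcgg
Myl9 (chr2:156775273-156775342, plus): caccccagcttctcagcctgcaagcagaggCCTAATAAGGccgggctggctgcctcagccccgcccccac
Actg1 (chr11:120348546-120348615, minus): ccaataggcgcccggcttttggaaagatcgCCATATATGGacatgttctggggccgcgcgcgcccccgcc
Vcl (chr14:20929148-20929210, plus): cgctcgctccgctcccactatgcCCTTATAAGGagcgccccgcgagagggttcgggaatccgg

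The boxes began 56, 161, 90 and 227 bases before the start sites of *Cnn2*, *Myl9*, *Actg1* and *Vcl*. *Acta2* had a window without an exact match, which does not exclude a box of looser form or one outside the window, and *Tagln* had no window. A match is a description of the sequence only.

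In a list of adhesion and epithelial-mesenchymal transition genes 8 of 12 fitted were called lower and 0 higher (66.7% lower, beside 15.3% of all genes, median −0.53). The 8 include *Cdh2* and *Epcam*. *Krt8* and *Krt18*, the simple epithelial keratins, were at 124.7 ± 47.2 and 100.2 ± 32.0 CPM in the strong clones and at 505 to 1738 and 339 to 1258 CPM in the weak ones (log2 fold changes −2.99 and −2.85). The tight junction gene *Cldn6* (−2.60) and the mesenchymal filament gene *Vim* (−2.26) were lower too, while the mesenchymal genes *Zeb1* (0.66), *Snai1* (0.31) and *Fn1* (0.05) were not called. *Jup* and *Ctnna1*, which encode junction partners of the cadherins, were lower by less (−0.49 and −0.30) and lost their calls without T41S (adjusted p = 0.121 and 0.25). *Cdh1*, the E-cadherin gene whose product binds β-catenin, was at 769 ± 86.1 CPM against 751, 801 and 1201 CPM (−0.24, adjusted p = 0.181).

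The largest falls also held secreted and signaling genes. *Wnt4*, a Wnt ligand gene, was at 0.534 to 8.27 CPM in the strong and at 24.1, 60.5 and 172 CPM in the weak clones (log2 fold change −4.45, SE 0.42). *Gbp2*, an interferon-inducible GTPase gene (−4.72), *Prss23*, a serine protease gene (−4.37), *Col1a1* (−4.19), *Thbs1*, the thrombospondin 1 gene (−4.04), and *Tgfb2* (−3.87) fell in the same way. *Gap43* (−3.94), *Acta1* (−3.60), *Lrp2* (−3.47), *Nes* (−3.43), *Flnc* (−3.38) and *Arl4c* (−3.33) completed the 15. T41S was the highest weak clone for all 15, and all 15 were still called without it. *Gap43* is on chromosome 16, and without S45C its log2 fold change was −4.10.

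Markers of differentiated lineages were present in the weak clones at low to moderate levels. Untreated unedited cells held them too, below every weak clone. Their list sums were 354 and 392 CPM for trophoblast, 92.4 and 95.7 for neural and 37.2 and 46.2 for fibroblast markers. Of the trophoblast markers 4 of 6 fitted (66.7%, beside 15.3% of all genes) were lower in the strong clones (*Krt8*, *Krt18*, *Tfap2c* and *Hand1*), while *Ascl2* and *Eomes* were both at 0.39 and not called (adjusted p = 0.664 and 0.467). *Tfap2c* lost its call without S45C (−0.89, adjusted p = 0.0643). The list summed to 195 to 400 CPM in the strong and 931 to 3086 CPM in the weak clones, most of it keratin. *Hand1* was at 0 to 5.99 against 10.6 to 26.2 CPM, and *Cdx2*, *Elf5*, *Gata3* and *Plac1* were too low to be tested. Of the neural markers, 4 of 4 fitted (beside 15.3% of all genes) were lower (*Nes*, *Map2*, *Tubb3* and *Pax6*), with sums of 23.1 to 96.96 CPM in the strong and 151 to 239.5 CPM in the weak clones, while *Sox1* and *Neurog2* were too low to be tested. The call of *Pax6* was lost without S45C (−0.78, adjusted p = 0.483) and without T41N (0.058), and that of *Tubb3* among codon 41 clones alone (0.173). Of 2 fibroblast markers fitted *Col1a1* was lower and *Pdgfrb*, at 1.08, was not called (adjusted p = 0.368), and *Col1a2*, *Col3a1*, *Dcn* and *Lum* were too low to be tested (list sums 4.82 to 26.7 against 52.8 to 172 CPM). In bulk RNA more cells of a type and more RNA per cell cannot be told apart, and the part of any such cells in the other results was not tested.

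Among primitive endoderm markers the strong clones themselves diverged. *Gata6* was at 3.10 to 85.4 CPM in the strong and at 1.51, 0 and 5.08 CPM in the weak clones (log2 fold change 2.77, SE 1.00, adjusted p = 0.043). The call was lost on leaving out any 1 weak clone, with values of 2.52 without S45C, 2.46 without T41N and 4.59 without T41S. Of 11 markers fitted, 2 were called higher and 1 lower (18.2% and 9.09%, beside 13.7% and 15.3% of all genes). *Lama1*, a basement membrane laminin gene, was higher (1.77), *Sparc*, which also marks this lineage, lower (−1.38, but −0.92 and adjusted p = 0.095 without T41S), and *Sox17* and *Gata4* were not called (2.35 and 1.42, adjusted p = 0.105 and 0.194). Of the other uncalled markers *Cubn* (3.24) and *Sox7* (2.09) were positive, and *Lamb1* (−0.61), *Col4a1* (−0.46), *Col4a2* (−0.69) and *Dab2* (−0.57) negative. Among codon 41 clones alone *Lamb1*, *Col4a1* and *Col4a2* were called lower. The list summed to 541 to 2756 CPM in the strong and 1439 to 3270 CPM in the weak clones. S37Y clone A5 had the highest *Gata6*, *Gata4* and *Sox17* of all clones (85.4, 37.5 and 60.2 CPM) and T41I clone A6 the lowest of the strong ones (3.10, 0 and 0 CPM).

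**Figure D3:**
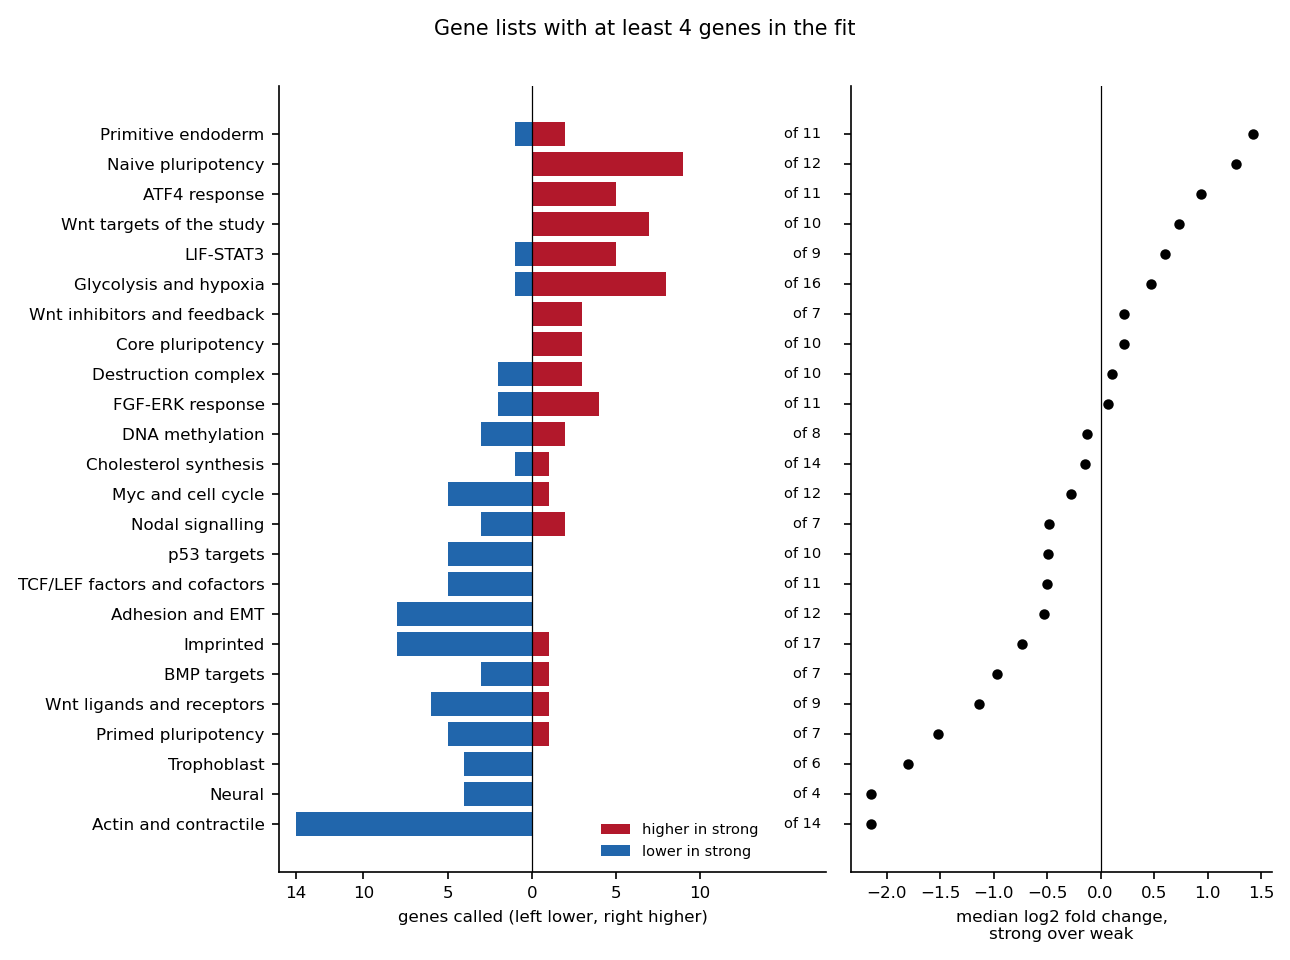
Left, number of genes of each list called higher (red) or lower (blue) in strong against weak clones, of the number fitted; right, median log2 fold change of the list. Lists with at least 4 fitted genes are ordered by their median, with actin and contractile genes (14 of 14 lower) lowest; naive pluripotency (9 of 12 higher) has the most calls on the higher side.

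The Wnt pathway itself showed a more uneven picture. The study named 10 genes that rise with CHIR99021 as endogenous β-catenin targets, a choice made on unedited libraries that the clone comparison does not use. In the study their levels in these clones also correlated positively with the reporter score, so their direction between clones was already known. Of these 10 genes, 7 were higher in the strong clones and 0 lower (70% higher, beside 13.7% of all genes, median log2 fold change 0.73). For 4 (*Cdx1*, *Tbx3*, *Etv4* and *Gbx2*) the groups did not overlap, as for 9.45% of all genes with the strong clones above. *Axin2*, the feedback scaffold of the destruction complex, was at 38.9 to 87.4 CPM in the strong and at 22.6, 38.3 and 42.4 CPM in S45C, T41N and T41S (0.87, SE 0.26, adjusted p = 0.016). Without S45C the value was 0.65 (adjusted p = 0.0953), and among codon 41 clones alone 0.26 (adjusted p = 0.429).

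*Sp5*, *Notum* and *Nkd1*, also feedback genes, had log2 fold changes of 0.28, 0.09 and 0.11 (adjusted p = 0.476, 0.873 and 0.916). All 12 clones had more *Sp5* than untreated cells: 41.3 to 128 CPM in the strong, 52.8 to 80.2 in the weak and 15.1 CPM on average in untreated cultures. *Notum* was likewise at 26.8 to 72.1, 26.0 to 58.8 and 8.87 CPM. *Znrf3* and *Bmp4* were called (0.59 and 0.58), but each call was lost without any 1 weak clone. Without S45C, T41N and T41S in turn, *Znrf3* was at 0.61, 0.44 and 0.74 and *Bmp4* at 0.36, 0.64 and 0.77. Without T41S 4 of the 10 were called, with *Gbx2* at an adjusted p of 0.0511.

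TCF/LEF factors and their partners were lower where they differed, with 5 of 11 called lower, 0 higher and a median of −0.50, beside 15.3% lower and 13.7% higher of all genes. *Tcf7l1*, the repressor of naive genes, was at 54.2 to 138 CPM in the strong and 155 to 180 CPM in the weak clones (−0.75, adjusted p = 0.00985), but at −0.32 among codon 41 clones alone (adjusted p = 0.146). *Lef1* (−0.96), *Tcf7l2* (−1.32), the co-activator gene *Bcl9l* (−1.81) and the co-repressor gene *Tle4* (−0.81) were the others, whereas *Tcf7* was at 45.8 ± 9.16 against 36.3 to 46.9 CPM (0.07). Of the 10 destruction complex genes, *Axin2*, *Axin1* (0.63) and *Csnk1a1* (0.37) were higher and *Apc* (−0.51) and *Gsk3b* (−0.77) lower, shares of 30% and 20% beside 13.7% and 15.3% of all genes. *Gsk3b* is on the shifted chromosome 16; without S45C it was at −0.83 and without T41S at −0.56 (adjusted p = 0.113). *Apc* did not keep its call without any 1 weak clone, at −0.56, −0.45 and −0.55 without S45C, T41N and T41S in turn. *Axin1* lost its call without T41N (0.49) or T41S (0.72), and *Csnk1a1* without T41S (0.32). Among the factors, the call of *Tcf7l2* was lost without T41S, that of *Tle4* without S45C and that of *Lef1* without T41N.

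Wnt ligand and receptor genes were mostly lower: 6 of 9 fitted, against 1 higher (66.7% and 11.1%, beside 15.3% and 13.7% of all genes), with a median of −1.14. *Wnt3* (−3.32), *Wnt7b* (−1.97), *Wnt6* (−1.72) and the Frizzled receptor genes *Fzd2* (−3.39) and *Fzd7* (−1.14) fell, as did the R-spondin receptor gene *Lgr4* (−0.71). *Fzd5* alone rose, from 27.1 to 64.6 CPM in the weak to 85.9 to 158 CPM in the strong clones (1.52, adjusted p = 0.000139). *Wnt3* was at 0.599 to 8.92 CPM in the strong and at 19.6, 18.2 and 70.6 CPM in the weak clones. *Wnt6* and *Lgr4* lost their calls without T41S (adjusted p = 0.117 and 0.0554).

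Targets of the other pathways active in ES cells differed in direction between pathways. Of 7 BMP genes the inhibitors of differentiation *Id1* (−0.99), *Id2* (−2.76) and *Id3* (−1.44) were lower and the ligand gene *Bmp4* higher, shares of 42.9% and 14.3% beside 15.3% and 13.7% of all genes. *Id2* was at 19.8 to 33.1 CPM in the strong and at 155, 153 and 199 CPM in the weak clones (6.79-fold, adjusted p = 5.25e-10), with unedited cells at 59.8 and 89.3 CPM. In the Nodal list, *Nodal* (−0.48), its antagonist *Lefty1* (−1.62) and the SMAD corepressor *Skil* (−1.25) were lower and *Tdgf1* and the inhibitory SMAD gene *Smad7* (1.23) higher; *Nodal* and *Lefty1* lost their calls without T41S, and *Nodal* also without S45C.

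The FGF-ERK list split, with *Etv4*, *Spry2* (1.06), *Spry4* (1.32) and *Fgf4* (0.89) higher and *Dusp4* (−1.77) and *Ier3* (−1.27) lower. In the LIF-STAT3 list *Socs3*, the pathway's feedback inhibitor, was at 161 to 296 CPM in the strong and 89.2 to 134 CPM in the weak clones (1.18), *Klf4*, *Gbx2*, *Stat3* (0.60) and *Lifr* (0.86) were higher and *Junb* (−0.66) lower. *Gbx2*, *Lifr*, *Junb*, *Spry4* and *Ier3* were not called without T41S. Of 11 primitive streak genes 9 were too low to be tested and 0 of 2 fitted were called, and the list summed to 31.03 to 102 CPM in the strong and 28.2 to 96.0 CPM in the weak clones. *T*, the brachyury gene, was at 15.6 to 58.3 against 8.07 to 48.6 CPM (0.16, adjusted p = 0.815) and *Eomes* at 0.39 (adjusted p = 0.467). *Cdx1* and *Stra8* (3.74, adjusted p = 0.0409, lost without any 1 weak clone) were the only caudal or retinoic acid genes called of 3 fitted, and 10 more were too low to be tested.

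Amino acid and energy metabolism differed as well. In the ATF4 list 5 of 11 fitted genes were higher and 0 lower (45.5% higher, beside 13.7% of all genes, median 0.94), all 5 for the synthesis or import of amino acids. *Asns*, asparagine synthetase, was at 849.5 to 1243 CPM in the strong and at 333, 365 and 338 CPM in the weak clones (2.94-fold, adjusted p = 1.85e-08), while untreated cells were at 372 and 406 CPM. *Psat1* (1.23), *Shmt2* (1.09), *Slc7a5* (0.94) and *Phgdh* (0.61) were higher too, though *Phgdh* not without T41N (0.41, adjusted p = 0.114). The stress genes *Ddit3*, *Chac1* and *Trib3* had values of 0.25, 1.02 and 1.39 and adjusted p of 0.694, 0.475 and 0.0991.

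Of 16 glycolysis and hypoxia genes, 8 were higher and 1 lower (50% and 6.25%, beside 13.7% and 15.3% of all genes, median 0.47). *Pfkp* (1.93), *Gpi1* (0.85), *Bnip3* (0.88) and *Aldoa* (0.51) rose, *Slc2a1*, a glucose transporter gene, fell (−0.76), and *Ldha*, *Pkm* and *Eno1* were at −0.02, 0.13 and −0.05. Without T41S 4 were higher and 0 lower. The strong clones were nonetheless below unedited cells in several of these, with *Gpi1* at 676 to 1363 CPM against 2041 CPM on average and *Bnip3* at 118 to 281 against 632 CPM.

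In the p53 list 5 of 10 were lower, beside 15.3% of all genes, and 0 higher (median −0.49), led by *Btg2* (−1.61), *Ccng1* (−1.17) and *Mdm2* (−1.09), whereas *Cdkn1a*, the p21 gene, was at 381 ± 52.7 CPM in the strong and 201, 363 and 465.5 CPM in the weak clones (0.15, adjusted p = 0.563). In the Myc and cell cycle list *Mycn* (−1.69), *Ccnd1* (−0.84), *Ccnd2* (−1.92), *Ccne1* (−0.53) and *Cdkn1c* (−2.09) were lower and *Ccnd3* (0.96) higher. *Phlda3* of the p53 list lost its call without T41S (adjusted p = 0.421) and *Ccne1* without S45C (−0.37, adjusted p = 0.119). *Myc* was at 84.8 ± 22.4 against 101 to 115 CPM (−0.29, adjusted p = 0.353). The D-type cyclin genes, which drive entry into the cycle, therefore differed in direction among themselves.

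Of 17 imprinted genes fitted, 8 were lower and 1 higher (median −0.74), beside 15.3% and 13.7% of all genes. *Peg10*, a placental gene of retrotransposon origin, was at 105 to 354 CPM in the strong and 652 to 1039 CPM in the weak clones (−2.19), and *Peg3* (−2.15), *Cdkn1c*, *Igf2* (−1.71), *Mest* (−1.49), *Dlk1* (−2.39), *Ndn* (−1.73) and *Snrpn* (−0.55) were also lower, with *Igf2r* (0.55) higher, a call lost without S45C (0.40, adjusted p = 0.127) and without T41N (0.0745). *Plagl1* was not called (1.75, adjusted p = 0.401): it stood at 0 to 2.96 CPM in the 5 codon 37 clones, at 31.15, 61.0 and 72.3 CPM in T41A clones C1 and E6 and T41I clone B9, and at 0.776 CPM in T41I clone A6.

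CHIR99021, which raises β-catenin by blocking GSK3, gave a second contrast, in unedited cells. There, at 7.5 and 10 µM against 0 µM, 1687 of 10674 genes were called (15.8%), 785 higher (7.35%) and 902 lower (8.45%). Of the genes in both fits called higher in strong clones, 113 of 1347 (8.39%) were higher with the inhibitor and 148 (10.99%) lower, beside 7.11% and 8.501% of all genes in both fits; these are 16.0 and 17.6% of the genes the inhibitor raised and lowered. Of those called lower in strong clones, 138 of 1516 (9.10%) were lower with the inhibitor and 232 (15.3%) higher, 16.4 and 32.9% of the inhibitor's genes. The clone and inhibitor comparisons share no library. The inhibitor's count was sensitive to single libraries, at 681 without the first 0 µM library and 944 without the second 10 µM library.

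The study chose its 10 targets for their correlation with CHIR99021 dose in these same libraries, so their rise with the inhibitor is largely set by that choice. The baselines of the contrasts differ too, since the weak clones already had more *Sp5* and *Notum* than untreated cells. The part of this in the sizes was not tested. Side by side, their median log2 fold change with the inhibitor was 2.32, with *Axin2* at 3.06, *Sp5* at 3.40 and *Notum* at 2.60 where the clones had 0.87, 0.28 and 0.09. *Tbx3* was at 1.34 with the inhibitor and 2.54 between clones, *Etv4* at 0.93 and 1.04, and *Cdx1* at 3.26 and 2.85. These values come from separate fits, and the difference between them was not tested. *Pou3f1* (−2.12), *Dnmt3b* (−0.79) and *Tcf7l1* (−0.93) were lower with the inhibitor as in the strong clones.

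Several genes moved in opposite directions. *Tagln* (1.45), *Krt8* (1.47), *Wnt3* (2.15), *Lef1* (2.30) and *Id3* (1.72) rose with the inhibitor and were lower in strong than in weak clones, whereas *Nr0b1* (−0.89) and *Tcl1* (−1.12) fell with it and were higher. Of the 12 naive genes in both fits, 3 rose and 5 fell with the inhibitor. Of the 14 contractile genes in both fits, 4 rose and 1 fell. Among the 15 largest rises in strong clones 6 rose and 2 fell with the inhibitor. Among the 15 largest falls 3 fell and 6 rose. The background was 7.11% higher and 8.501% lower with the inhibitor, of all genes in both fits.

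**Figure D4:**
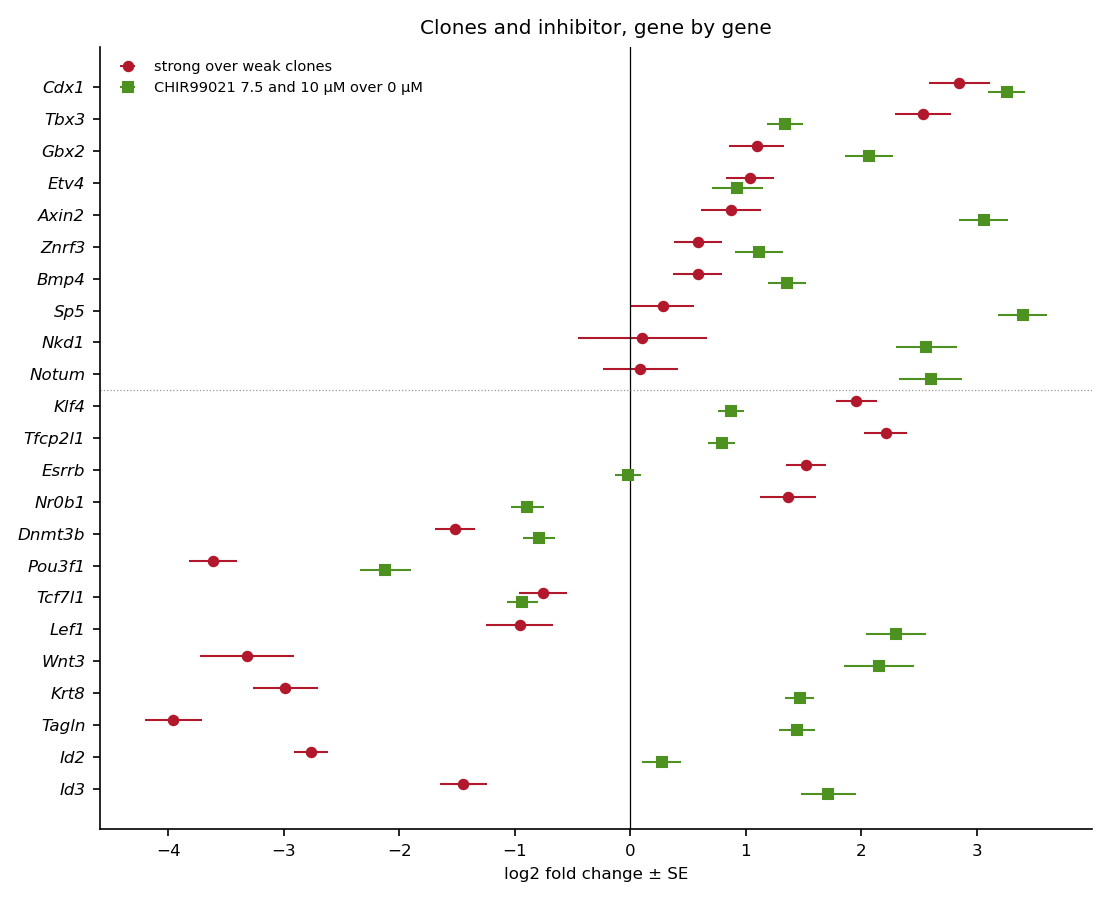
Log2 fold change (± SE) of 23 genes for strong over weak clones (red circles) and for CHIR99021 at 7.5 and 10 µM over 0 µM in unedited cells (green squares); the 10 study targets are above the dotted line. *Axin2* and *Sp5* are at 3.06 and 3.40 with the inhibitor and 0.87 and 0.28 between clones, and *Lef1*, *Wnt3*, *Krt8*, *Tagln* and *Id3* lie on opposite sides of 0.

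To place the other libraries, each gene called was put on a scale from 0 (mean of the weak clones) to 1 (mean of the strong clones), in log2(CPM + 1). The medium clones had a median position of 0.69 over the genes higher and 0.71 over those lower in the strong clones, nearer the strong end, with S45P clone G5 (0.51 and 0.60) the closest of the 3 to the weak end. Untreated unedited cells had median positions of 0.79 and 0.72, so for most of these genes the weak clones lay farther from unedited cells than the strong ones did. The weak mean rests on 3 clones and the strong range on 9, and the genes were chosen for the difference between them.

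Among the 322 higher and 629 lower genes with at least a 2-fold change and no overlap, both untreated cultures fell inside the strong range for 94 (29.2%) and 191 (30.4%) and inside the weak range for 33 (10.2%) and 67 (10.7%). Of the 15 largest falls, both cultures were between the groups for 10, inside the strong range for 3 and inside the weak range for 0. *Lrp2* was an example of a gene in between, at 3.72 to 17.3 CPM in the strong, 28.5 CPM on average in untreated and 87.5 to 118 CPM in the weak clones. *Flnc*, a filamin gene, was at 8.18 to 18.6 CPM in the strong clones, 10.2 CPM in untreated cells and 101 to 198 CPM in the weak clones. Clones and unedited cultures also differed in mitochondrial share, 1.53 to 2.52% in the strong clones against 1.31 and 0.562% in the untreated cultures, and in their history.

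Some genes varied widely among the 9 strong clones. The paired clones of 1 mutation were not duplicate libraries, the chi-square of their counts divided by its degrees of freedom being 3.17 for the S37F, 1.80 for the T41A and 3.99 for the T41I clones. Among genes averaging 20 CPM or more, the most variable were *Zscan4a*, *Zscan4c* and *Gm8300* with *Gm5662* and *Gm10800*, *Srgn*, and the Y-linked *Ddx3y* and *Eif2s3y*. *Zscan4a*, which marks a transient state resembling the 2-cell embryo, was at 75.8 CPM in T41A clone E6 and at 1.02 and 0.776 CPM in S37F clone G1 and T41I clone A6, with the other 6 strong clones between 18.0 and 55.1 CPM. The *Zscan4* genes are near-identical copies and the *Gm* genes are multi-copy, so their counts are uncertain.

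*Eif2s3y* was at 0.689 CPM in T41I clone B9, which also had *Ddx3y* at 0.689 CPM, against 24.8 to 78.3 CPM for *Eif2s3y* in the other strong clones. *Srgn*, a proteoglycan gene, was at 95.3 CPM in S37Y clone A5 and 1.55 CPM in T41I clone A6. Against this, *Esrrb* varied only from 491 to 661 CPM over the same clones. *Cdx1* was lowest in T41A clone C1 (115 CPM) and highest in S37F clone G1 (334.5 CPM), while T41A clone E6 was at 258 CPM.

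**Figure D5:**
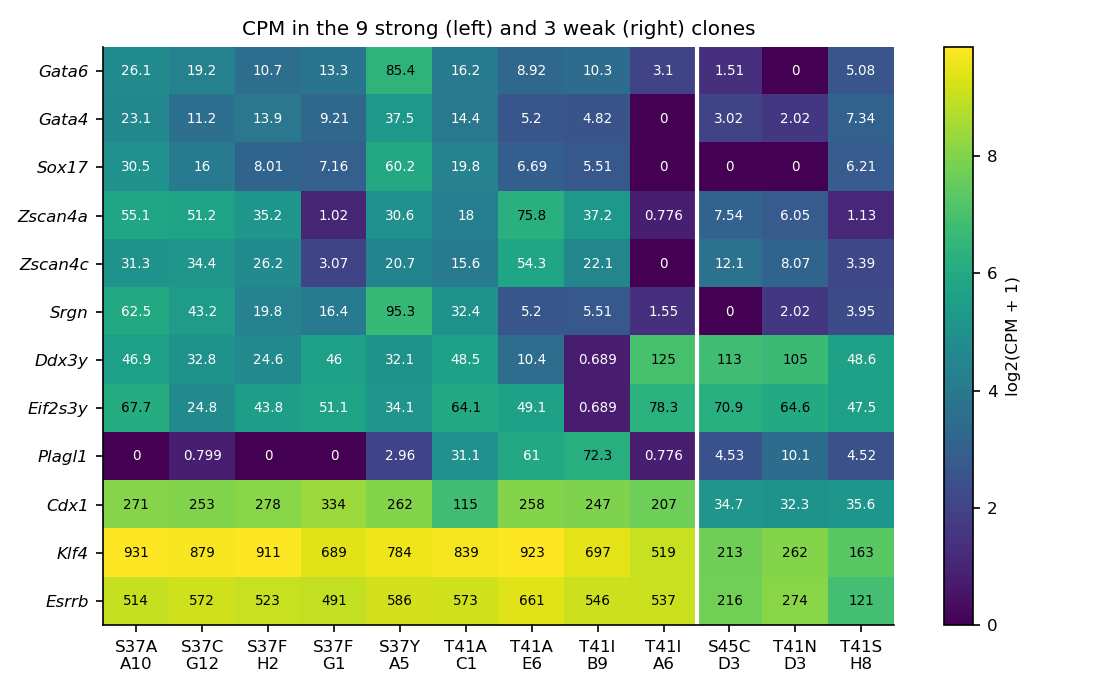
CPM (printed) and log2(CPM + 1) (color) of 12 genes in the 9 strong and 3 weak clones, 1 column per clone. The upper 9 rows vary widely among strong clones, as with *Gata6* from 3.10 to 85.4 CPM, whereas *Cdx1*, *Klf4* and *Esrrb* stay above every weak clone.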

How the data were processed

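Bulk 3′ RNA libraries were made by mcSCRB-seq, in which unique molecular identifiers (UMIs) label the cDNA. The deposited values were raw counts of deduplicated UMIs. To obtain them the authors aligned trimmed reads to mm10 with STAR and assigned them to genes with featureCounts 2.0.1. The annotation release and strandedness are not given in the sources used here, so overlapping antisense genes cannot be told apart. Of 48440 gene IDs, 48058 were found in GENCODE M21 (GRCm38), 40606 with the same version, and gave the symbols.

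Groups came from the mutations in the labels and the study's categories. Counts were tested with edgeR 4.0.16 (R 4.3.3) by its quasi-likelihood test after TMM scaling and filterByExpr (min.count of 10), at a Benjamini-Hochberg threshold of 0.05, strong against weak on 12 libraries, and 7.5 and 10 µM against 0 µM CHIR99021 on 10. SEs are the fold change over the root of the F statistic. CPM used total counts, and positions log2(CPM + 1). Library properties had two-sided exact permutation tests. p-values measure the spread between clones or cultures, whose independence the labels do not state. Depth sets a floor of 3 counts (1.48 to 6.05 CPM per clone), covering counting error only.

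Named genes were *Ctnnb1*, the 15 largest called rises and falls whose groups did not overlap and averaged 20 CPM or more, the 8 most variable among strong clones, and members of 29 lists. Members, lists and rules were chosen with earlier results of these data known, and the motifs after them. Tests were repeated, where it applied, with DESeq2 1.42.0, RLE scaling, all genes kept, thinned counts, 15 clones in 1 fit, counts summed per mutation, codon 41 alone, a test against a fold change of 1.5, chromosome 16 left out, a replicate block and each library left out. The steps were tested on simulated data.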

Additional observations from a re-analysis of the deposited data

Results flagged for a closer look

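In groups of 9 values, 1 lay apart from the rest by more than Dixon's 95% limit for the gap as a share of the range for 2 of 44 values checked among the strong clones. Chance alone gives about 1 in 20 for values not picked by their spread. The 44 include the 8 genes most variable among these same clones, *Ddx3y* among them, and that rate does not hold for those. *Tagln* was at 86.1 CPM in T41I clone B9, with the next highest strong clone at 59.5 CPM (gap 0.513 of the range), still far below the lowest weak clone at 373 CPM. *Ddx3y* was at 124.9 CPM in T41I clone A6, with the next at 48.5 CPM (0.615), while the other clone of that mutation, B9, was at 0.689 CPM.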

How the results depend on the processing

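Of 153 named or listed genes called, 88 were called under every alternative that tested them, and the direction of none reversed; 37 lost the call without T41S, 15 without S45C, 13 without T41N and 23 with codon 41 alone. The count of 2983 genes was 1806 with counts thinned to 495616 per library and 945 in the test against a fold change of 1.5; it was 2858 with DESeq2, 2982 with RLE and 3114 summed per mutation, and leaving out 1 clone gave 1657 to 3081. Genes called in common had the same direction in each. A lost call need not mean a smaller fold change, as for *Trpm1* without T41S (log2 fold change 3.38 against 3.39). Without a filter the median over all genes moved from 0.03 to 0.17. The split turned from 47.1% to 30.9% higher in the test against 1.5-fold (292 higher, 653 lower).

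The CHIR99021 count of 1687 was 608 with DESeq2, 438 with thinned counts and 681 to 1801 on leaving out 1 library. With the replicate block it was 1551. The source of the replicate numbers is not given, and same-numbered libraries did not deviate together (correlations −0.12 to 0.11 over 10 pairs of doses), so the block was not used. Clones have no shared numbers to pair. Leaving out 1 clone, the strong minus weak difference in total counts was 252900 to 890200 and that in detected genes 439.6 to 1647, both past the threshold without T41S. The top gene's share (−1.169 to −0.55 percentage points) did not pass without T41N or T41S, nor the ribosomal protein share (1.822 to 2.177) without T41N. In that last case the difference was 2.115 and the unadjusted exact permutation p of 0.0182 was the smallest that 55 splits allow. The failure there does not mark a smaller difference.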
